A study of Mus musculus with 6 samples.

Results

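The 32 genes described here encode the steps of glycolysis and a set of genes known to respond to low oxygen, 32 of the 15601 genes in the deposited count table. They were taken by name from a fixed list: 3 transporters of glucose or lactate, 14 glycolytic enzymes including lactate dehydrogenase, and 15 hypoxia genes. All 32 had a row in the table. The cells were CD8 T cells sorted as live, CD3-positive, CD8-positive and CD4-negative from tumours of the urothelial carcinoma line MB49, grown under the skin of wild-type C57BL/6 mice and taken on day 10. The mice were 6 weeks old at inoculation and 6 to 8 weeks old by the sample labels. All mice carried the same tumour line, a model under the skin and not in the bladder, and the labels name sex as the only factor, with 3 female and 3 male biological replicates.

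Glycolysis splits glucose into pyruvate, and lactate dehydrogenase turns pyruvate into lactate, which leaves the cell through monocarboxylate transporters. In low oxygen the prolyl hydroxylases no longer mark the HIF alpha subunits for destruction, and HIF dimers then bind DNA near many glycolytic genes and near genes for mitophagy, collagen modification and angiogenesis. T cells also raise glycolysis when their antigen receptor is engaged and when they divide, and HIF-1 alpha can accumulate in activated T cells without hypoxia.

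HIF dimers bind the 5-base cores ACGTG and GCGTG, and the 250 bases before a RefSeq transcription start were searched for them on both strands. A window was held for 29 of the 32 genes, and Slc2a3, Bnip3l and Ndrg1 had none. At least 1 window of 27 of the 29 genes held a core (93.1%), against 41.5% of 27025 genes with a window and 61.9% of the 9099 matched genes that were tested over CD8 T cells. ACGTG was in 17 of 29 (58.6%, against 18.5% and 25.4%) and GCGTG in 19 of 29 (65.5%, against 30.9% and 50.5%). CACGTG, the E-box bound by MYC and other factors, holds the ACGTG core on both strands and was in 2 of 29 (6.90%, against 6.86% and 9.96%). These are matches of letters in a window and do not show binding. The list was picked in part for known response to low oxygen, so the shares are a description and no test. Genes with more starts had more windows, and the part of window number and base content was not tested.

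The windows below are from the genome build GRCm38.p6, written 5' to 3' on the strand of the gene, with the cores in capitals. Bnip3, Hk2, Pgk1 and Mxi1 are shown because they were among the 8 genes whose level differed most between clusters other than 6 and 10. Eno3, chosen after its values were seen, is shown because its cluster pattern was unlike that of Eno1. The Bnip3 window (chr7:138909507-138909756, minus strand) held 5 core positions, 2 of them in 1 E-box. The Hk2 window (chr6:82774455-82774704, minus strand) and the Pgk1 window (chrX:106186850-106187099, plus strand) held 2 each, all ACGTG. The Mxi1 window at its first start (chr19:53310256-53310505, plus strand) held 0, while those at its other 2 starts held 1 ACGTG each, and the Eno3 window (chr11:70656926-70657175, plus strand) held 1, a GCGTG.
Bnip3: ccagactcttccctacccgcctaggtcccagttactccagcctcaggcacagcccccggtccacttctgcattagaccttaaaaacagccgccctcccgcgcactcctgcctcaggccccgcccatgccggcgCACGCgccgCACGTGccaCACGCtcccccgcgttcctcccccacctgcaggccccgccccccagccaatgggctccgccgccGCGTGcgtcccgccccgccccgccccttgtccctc
Hk2: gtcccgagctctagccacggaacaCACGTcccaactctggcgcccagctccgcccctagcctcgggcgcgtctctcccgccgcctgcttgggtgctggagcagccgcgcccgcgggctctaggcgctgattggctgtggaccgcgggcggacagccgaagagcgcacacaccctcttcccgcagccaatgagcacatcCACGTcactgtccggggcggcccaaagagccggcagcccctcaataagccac
Pgk1: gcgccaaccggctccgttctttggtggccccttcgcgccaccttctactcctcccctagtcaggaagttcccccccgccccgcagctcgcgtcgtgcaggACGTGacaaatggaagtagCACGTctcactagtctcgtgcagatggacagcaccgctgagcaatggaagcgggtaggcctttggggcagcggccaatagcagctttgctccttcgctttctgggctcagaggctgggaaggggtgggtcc
Mxi1: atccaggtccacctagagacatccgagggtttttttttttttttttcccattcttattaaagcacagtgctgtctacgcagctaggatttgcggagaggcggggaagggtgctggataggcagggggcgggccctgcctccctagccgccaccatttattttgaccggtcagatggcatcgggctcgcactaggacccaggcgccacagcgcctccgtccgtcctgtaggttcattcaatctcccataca
Eno3: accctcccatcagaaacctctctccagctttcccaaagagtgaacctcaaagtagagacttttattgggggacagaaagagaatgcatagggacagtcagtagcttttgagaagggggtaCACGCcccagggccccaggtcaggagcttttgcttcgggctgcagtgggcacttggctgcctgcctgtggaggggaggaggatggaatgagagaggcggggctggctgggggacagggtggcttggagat

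The table held 26698 cells, 9955 from females and 16743 from males, in 6 libraries that the number after each cell barcode names. Libraries 2, 5 and 6 were female and libraries 1, 3 and 4 male. Xist was at 707 to 814 CPM (UMI counts per 1000000, a UMI being a unique molecular identifier) in the female libraries and at most 0.0756 in the male ones, and Y-linked Ddx3y at 78.2 to 87.6 CPM in males and 0 in females. The 5 markers of CD8 T cells summed to 3710 to 4992 CPM in a library outside cluster 2, and those of CD4 T cells, which the sort removed, to 2.08 to 8.74. A total of 84 barcodes were shared between libraries, and 169 cells carried one. The authors' 11 clusters are used by number, with a name only where marker genes gave one. By those markers, clusters 3 and 5 were proliferating-like, 4 was cytokine-producing activated-like, 7 naive or central memory-like, 9 interferon-stimulated-like and 2 innate-like. Cluster 0 had the highest mean level of the terminal exhaustion markers apart from cluster 6, but was led by Cnih2, Tg and Sdcbp2. Cluster 1 had the highest mean of the effector markers but was led by Crybb1, Itgae and Rap1gap2. Cluster 8 was led by Mcpt8 and the granzyme genes Gzmc, Gzmf and Gzme. Clusters 0, 1 and 8 keep their numbers. Clusters 6 and 10 stay unnamed, at a median of 1742 and 1461 UMIs per cell, 30.0% and 20.3% of them mitochondrial. Median UMIs per cell in the other 9 ran from 5345 in cluster 1 to 23987.5 in cluster 3.

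Levels below are CPM of the UMI counts summed over the cells of a library, or of a library within a cluster. They are 3' UMI counts and are not scaled to gene length, so a level is compared between clusters and sexes and not between genes. Clusters were formed on these same cells, so differences between clusters are given as description, with no test. With clusters 6 and 10 left out, most of the 32 genes were highest in cluster 8. Most were lowest in the naive or central memory-like cluster 7 or the innate-like cluster 2. For the 32 genes, the highest and lowest clusters and the ratios below leave out clusters 6 and 10 unless one of these is named. Over the 9 clusters other than 6 and 10, 29 genes had a mean of at least 5 CPM, and 19 of them were highest in cluster 8. In all, 17 of the 29 were lowest in cluster 7 and 6 in cluster 2. The highest cluster mean was at least 3 times the lowest in 16 of the 29, where 23.3% of 8568 genes at that level reached this, and the median ratio was 3.42 against 2.01. In cluster 8 the mean was over 2 times that in cluster 7 for 23 of the 29, against 10.8% of all genes. Cluster 8 also held more UMIs per cell than cluster 7, with medians of 13987 and 7465, and the part of cell depth in these ratios was not tested.

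**Figure D1:**
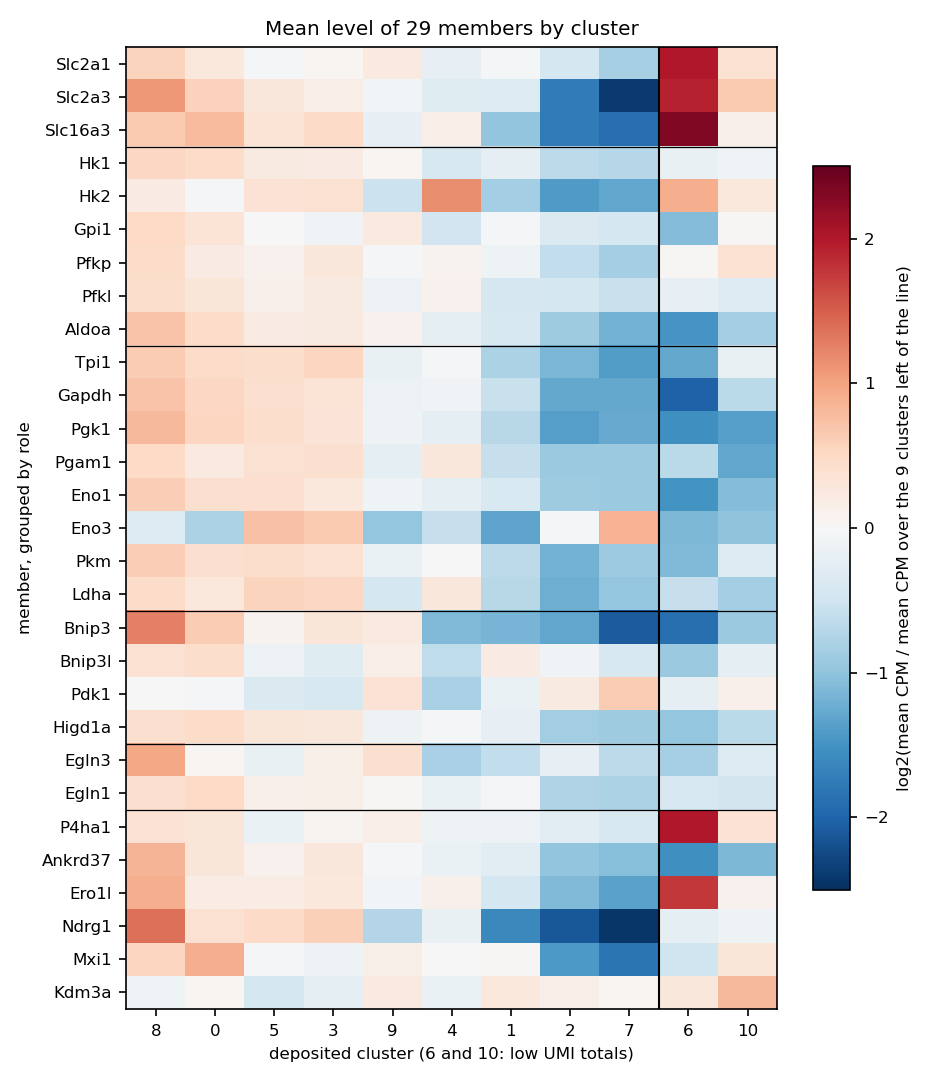
Mean level of the 29 genes with a mean of at least 5 CPM (rows, by role) in each deposited cluster (columns), as log2 of the cluster mean over the mean of the 9 clusters left of the line. Colours are means over 6 libraries. Among the 9 clusters, 19 genes are highest in cluster 8 and 17 lowest in cluster 7. Cluster 6 is set apart by Slc2a1, Slc2a3, Slc16a3, P4ha1 and Ero1l.

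Among the transporters, Slc2a3 (GLUT3, a high-affinity glucose carrier) differed most between clusters. Its level in cluster 8 was 190.2, 209.9 and 234 CPM in female libraries 2, 5 and 6 and 223, 195 and 186 in male libraries 1, 3 and 4. In cluster 7 it was 18.7, 16.3 and 23.5 in females and 15.04, 16.7 and 20.1 in males. By the means this was a ratio of 11.2, from 9.24 to 14.9 within single libraries. Slc16a3 (MCT4, which exports lactate) was highest in cluster 0, at 97.7, 106 and 103 CPM in females and 104, 123 and 92.5 in males. In cluster 7 it was 21.3, 22.1 and 18.2 in females and 9.58, 12.4 and 12.9 in males, so that the ratio of means was 6.50. Slc2a1 (GLUT1, the carrier best known for its rise on T cell activation) spanned less, from 83.3 ± 14.3 CPM in cluster 8 to 31.9 ± 8.70 in cluster 7 (SD, n = 6 libraries).

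The hexose phase of glycolysis held the isoform pair Hk1 and Hk2, hexokinases that trap glucose in the cell, and they differed in pattern. Hk1 was within the spread between libraries in clusters 8 and 0, at 75.5 ± 5.19 and 73.1 ± 3.94 CPM, and at 32.1 ± 4.80 in cluster 7. Hk2, the inducible isoform, was highest in the cytokine-producing activated-like cluster 4, at 70.7, 33.3 and 50.2 CPM in females and 46.5, 54.1 and 39.9 in males. In the innate-like cluster 2 it was 12.4, 5.00 and 10.3 in females and 5.96, 8.25 and 7.08 in males, and the ratio of means was 6.01. Cluster 4 was the highest of the 9 clusters for Hk2 in 6 of 6 libraries. Gpi1, Pfkp, Pfkl and Aldoa, the isomerase, the phosphofructokinases and the aldolase that follow, were all highest in cluster 8, and their ratios ran from 1.97 for Gpi1 to 3.73 for Aldoa.

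In the triose phase, Gapdh, Tpi1, Pgk1, Pgam1, Eno1 and Pkm were highest in cluster 8 as well. Gapdh, which makes the first NADH of the pathway, was at 4261 ± 368 CPM in cluster 8 and 1067 ± 155 in cluster 2. Pgk1, phosphoglycerate kinase, was at 307, 232 and 248 CPM in the females and 155, 316 and 161 in the males of cluster 8. In cluster 2 it was at 84.5, 48.6 and 60.3 in females and 26.7, 57.7 and 33.8 in males, 4.55 times lower by the means. Male library 3 stood well above the other 2 male libraries in both clusters. Ldha, lactate dehydrogenase A, was highest in the proliferating-like clusters 5 and 3, at 1545 ± 69.3 and 1512 ± 67.1 CPM, with cluster 8 at 1453 ± 135. Cluster 5 was above cluster 3 in 6 of 6 libraries, though by less than the spread between libraries. All 14 enzymes together took 1.22 ± 0.104% of the UMIs of cluster 8, 1.06 ± 0.0804% of cluster 0 and 0.380 ± 0.0347% of cluster 7.

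Eno1 and Eno3 are enolases for the same reaction, Eno1 being the form of most tissues and Eno3 that of muscle, and their cluster patterns were unlike. Eno3 in cluster 7 was at 17.9, 22.1 and 24.6 CPM in females and 22.3, 19.3 and 21.9 in males. In cluster 8 it was at 5.67, 7.81 and 8.38 in females and 8.72, 13.8 and 11.3 in males, so that cluster 7 was above cluster 8 in every library. Eno1 ran the other way, with 1134 ± 169.7 CPM in cluster 8 and 389 ± 63.1 in cluster 7. Eno3 was next highest in the proliferating-like clusters 5 and 3, at 19.5 ± 4.59 and 18.4 ± 6.24 CPM, which overlapped with cluster 7, and lowest in cluster 1 at 4.70 ± 1.69. Eno1 may share reads with its near-identical copy Eno1b, and Pgk1 with Pgk1-rs7, both also in the table, and the symbol Aldoa belongs to 2 annotated genes, so these 3 values are less certain.

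Among the hypoxia genes, Ndrg1, a stress-induced regulator of growth and differentiation, had the largest ratio between clusters of the genes at or above 5 CPM. In cluster 8 it was at 127, 147 and 127 CPM in females and 83.6, 129 and 124 in males, and in cluster 7 at 17.9, 6.97 and 5.35 in females and 6.11, 5.09 and 11.1 in males. Between the means this was a ratio of 14.1, from 7.11 to 25.4 within libraries, and male library 1 was the lowest in cluster 8. Bnip3, a mitophagy receptor of the outer mitochondrial membrane, was at 162, 134 and 136 CPM in the females and 81.5, 109 and 78.3 in the males of cluster 8. In cluster 7 it was at 22.1, 9.29 and 7.49 in females and 8.43, 10.9 and 11.1 in males, 10.1 times lower by the means. Its relative Bnip3l spanned a ratio of only 2.11, from 247 ± 14.8 CPM in cluster 0 to 117 ± 14.3 in cluster 4.

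Mxi1, a MAX partner that opposes MYC, was highest in cluster 0, at 93.0, 77.1 and 79.6 CPM in females and 74.5, 81.8 and 78.7 in males. In cluster 7 it was at 14.5, 15.1 and 12.8 in females and 9.75, 9.82 and 10.8 in males, a ratio of 6.66. Ero1l, an oxidase that drives disulfide formation in the endoplasmic reticulum, was at 128, 148 and 163 CPM in females and 114, 127 and 109 in males in cluster 8. In cluster 7 it was at 25.5, 37.2 and 23.5 in females and 24.6, 24.7 and 29.1 in males, a ratio of 4.79. Of the HIF prolyl hydroxylases, Egln3 was highest in cluster 8 (18.8 ± 5.92 CPM) and lowest in cluster 4 (5.49 ± 1.29), and Egln1 was highest in cluster 0 (178 ± 17.4 CPM) and lowest in cluster 7 (72.7 ± 9.07). Higd1a, a mitochondrial protein of the respiratory chain, was alike in clusters 0 and 8 (346 ± 37.5 and 335 ± 48.9 CPM) and at 137 ± 18.5 in cluster 7. Ankrd37, an ankyrin-repeat gene used as a HIF target, and P4ha1, the catalytic subunit of collagen prolyl hydroxylase, were highest of the 9 clusters in cluster 8, with ratios of 3.76 and 1.71.

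Pdk1 and Kdm3a did not follow the others. Pdk1, the kinase that shuts pyruvate dehydrogenase, was highest in cluster 7, at 60.7 ± 11.8 CPM, and lowest in cluster 4, at 22.3 ± 2.17. Kdm3a, a histone demethylase, was lowest in the proliferating-like cluster 5 at 25.6 ± 2.83 CPM and spanned a ratio of only 1.64. Over the 9 cluster means, the median Pearson correlation of a gene with the other 28 was 0.95 for Gapdh and 0.94 for Pgk1. It was -0.16 for Eno3, -0.47 for Pdk1 and -0.48 for Kdm3a. These 9 points share the same 6 libraries and the correlations are a description. Vegfa, Car9 and Adm were too low to read between clusters, at no more than 7.77 ± 6.21, 2.35 and 0.680 CPM in any cluster mean, and Adm had 24 UMIs in all outside cluster 2.

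Hif1a, which encodes the regulated HIF subunit, was highest in cluster 0 at 517 ± 59.1 CPM and was at 370.4 ± 65.6 in cluster 8, 100.2 ± 32.6 in cluster 7 and 97.2 ± 26.4 in cluster 2. Of the other glycolysis and HIF genes with a mean of at least 5 CPM over the 11 clusters, Epas1, the gene of HIF-2 alpha, had the largest ratio between clusters, with 40.8 ± 10.7 CPM in cluster 8 and 1.36 ± 1.37 in cluster 7. Aldoc, a second aldolase, was at 63.7 ± 6.81 CPM in cluster 8 and 6.49 ± 3.41 in cluster 7. Cxcr4, a chemokine receptor, ran the other way, with 187 ± 27.1 CPM in cluster 2 and 18.2 ± 7.71 in cluster 8.

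In cluster 6, with few UMIs per cell and a high mitochondrial share, some of the 32 genes were high and others low. Slc2a1, Slc2a3 and Slc16a3, membrane transporters, and P4ha1 and Ero1l, enzymes of the endoplasmic reticulum lumen, were higher there than the mean of the 9 other clusters in 6 of 6 libraries. Slc16a3 in cluster 6 was at 273, 288 and 384 CPM in females and 281, 329 and 238 in males, 4.95 times the mean of the 9. The ratios were 4.001 for Slc2a1, 3.77 for Slc2a3, 3.99 for P4ha1 and 3.40 for Ero1l. Hk2 and Kdm3a were also higher in 6 of 6, by 1.87 and 1.21 times. Several cytosolic enzymes were lower there in 6 of 6 libraries: Gapdh at 0.245, Pgk1 at 0.346, Eno1 at 0.357, Aldoa at 0.358 and Tpi1 at 0.414 times the mean of the 9. Bnip3 was also lower, at 0.271 times. Plod2, a lysyl hydroxylase of the same organelle as P4ha1, was highest in cluster 6 as well, at 38.9 ± 8.13 CPM against 17.8 ± 2.81 in cluster 8. The part of cell quality in this split was not tested.

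**Figure D2:**
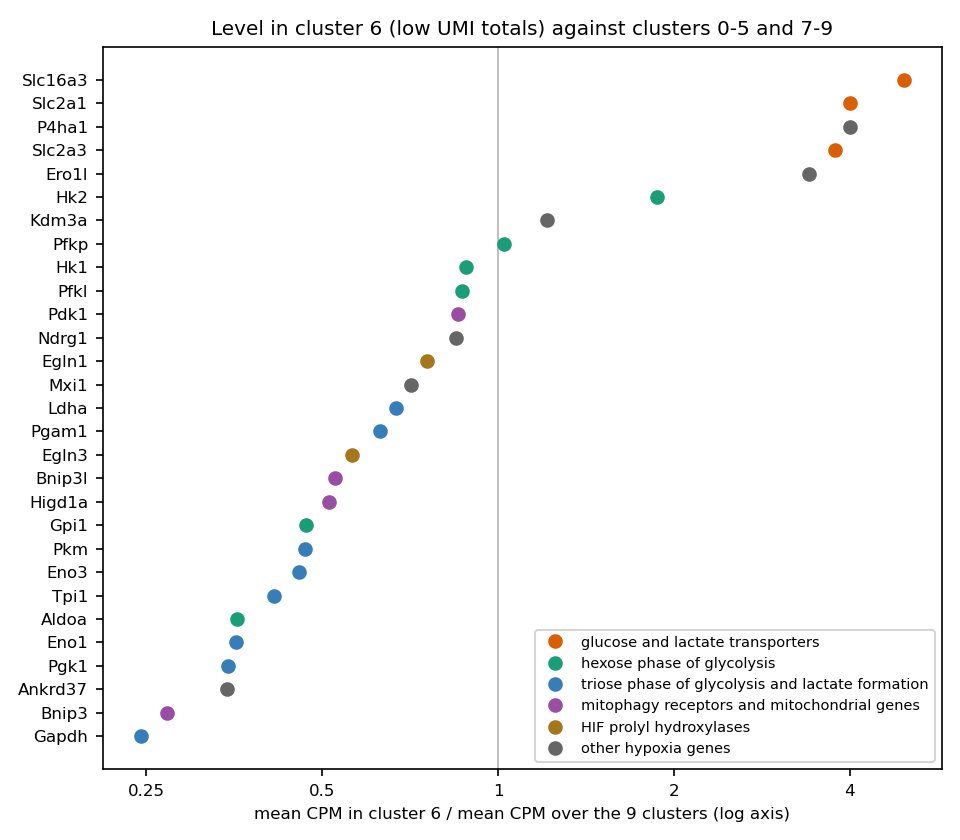
Level in cluster 6 over the mean of clusters 0 to 5 and 7 to 9 for 29 genes (log axis, means over 6 libraries, colour by role). The transporters, P4ha1 and Ero1l lie between 3.40 and 4.95, and Gapdh lies lowest at 0.245.

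The labels set males against females, and the sums over the CD8 T cell clusters, that is all but the innate-like cluster 2, were compared first. They held 23820769 to 62292575 UMIs per library. Of the 32 genes 31 passed the filter on low counts, Adm being the exception. By edgeR's quasi-likelihood test 0 of the 31 were called at an adjusted p under 0.05, where 0.0902% of the 12194 genes tested were called. Of the 31, 5 had an unadjusted p under 0.05. DESeq2 called 3, Bnip3, Ero1l and Eno3, against 1.04% of all genes, and limma-voom called 0. The fitted values were lower in males for 29 of the 31, with a median log2 fold change (male minus female) of -0.17, while 48.8% of all genes tested were lower and their median was 0.0042. The same 29 had a lower mean CPM in males, and 29 were lower with DESeq2 size factors.

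Bnip3 was at 77.4, 70.4 and 64.6 CPM in female libraries 2, 5 and 6 and at 32.2, 55.6 and 43.5 in male libraries 1, 3 and 4. Every female library was above every male one, and the log2 fold change was -0.69 ± 0.21 (SE, edgeR adjusted p = 0.405). Ero1l was at 87.6, 96.1 and 97.7 CPM in females and 65.4, 77.5 and 72.4 in males, again with no overlap, at -0.38 ± 0.09 (edgeR adjusted p = 0.225). In all, 6 genes (Slc2a3, Pfkp, Bnip3, Egln3, P4ha1 and Ero1l) had every female library above every male one, which held for 6.09% of all genes tested. Car9, carbonic anhydrase 9, had the largest fitted difference, -0.85 ± 0.44, from 119 UMIs in females and 74 in males. Its levels of 0.612, 1.18 and 1.01 CPM in females and 0.290, 0.905 and 0.401 in males overlapped (edgeR adjusted p = 0.669).

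Eno3 had the opposite sign. It was at 9.17, 9.59 and 11.6 CPM in the female libraries and 17.0, 13.5 and 15.6 in the male ones, with no overlap, at a log2 fold change of 0.61 ± 0.10 (edgeR adjusted p = 0.114). Every male library was above every female one for 1 of the 31 genes, Eno3, and for 7.04% of all genes. Pdk1 was the other gene with a higher fitted value in males, at 0.06 ± 0.11, and its libraries overlapped. Eno1 was at 992, 899 and 847 CPM in females and 660.3, 966 and 706 in males, which overlapped, at -0.23 ± 0.17 (edgeR adjusted p = 0.762).

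Among the males, library 3 was the highest for 27 of the 31 genes (87.1%), where 27% of all genes tested had that order. Its lead was small for some of them. Mxi1 was at 49.0 CPM in male library 3 and 48.9 in male library 4, and P4ha1 at 51.4 in male library 3 and 51.1 in male library 1. Pgk1, at 211, 167 and 185 CPM in females, was at 202 in male library 3 and at 90.0 and 112 in male libraries 1 and 4. The log2 fold change was -0.47 ± 0.33, and -0.91 without male library 3, and neither passed the test (edgeR adjusted p = 0.763 and 0.105). Ndrg1 was at 74.6, 74.8 and 63.6 CPM in females, 66.8 and 60.2 in male libraries 3 and 4 and 29.6 in male library 1. Its log2 fold change was -0.44 ± 0.32, and -0.15 without male library 1. Over the 31 genes the median was -0.29 without male library 3 (30 lower in males) and -0.08 without male library 1 (26 lower). The median UMI count per cell was 9210 in library 3, 6976 in library 1 and 6397.5 in library 4, against 9043 to 10114.5 in females, and its part was not tested.

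**Figure D3:**
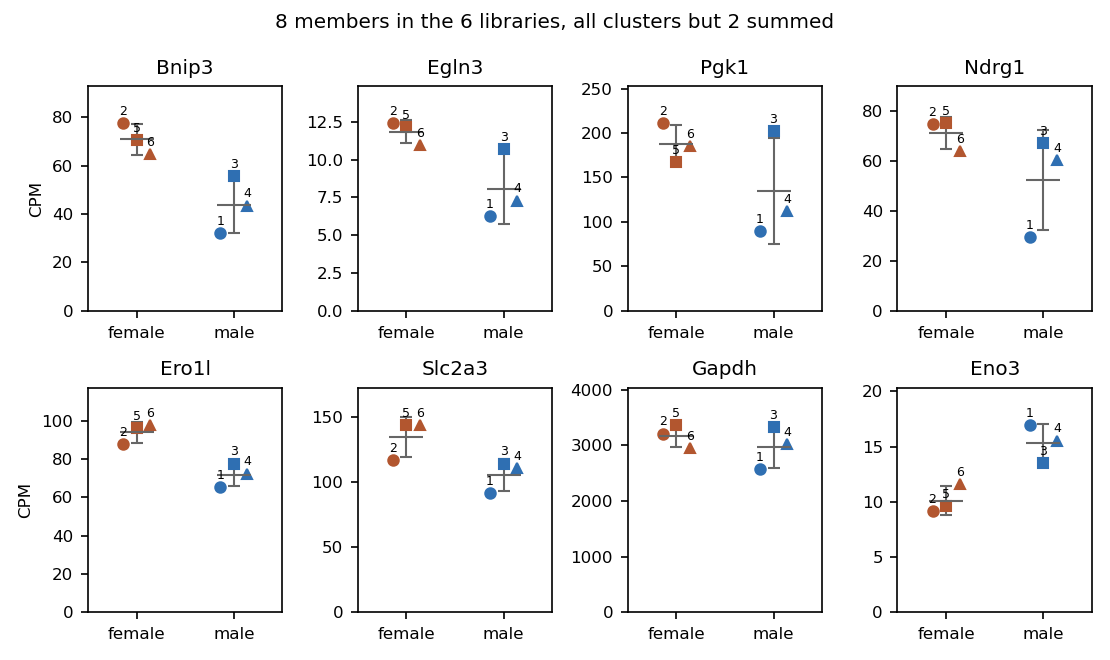
CPM of 8 genes in the 3 female and 3 male libraries, summed over all clusters but 2 (points, with the library number; bars, mean and SD, n = 3). Bnip3, Egln3, Ero1l and Slc2a3 are higher in every female library, and Eno3 is higher in every male library. Male library 3 lies among the females for Pgk1, Ndrg1 and Gapdh, and male library 4 does so for Gapdh.

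A sum over clusters moves with the mix of clusters as well as with the level within them. When every library was given an equal mix of clusters, the median over the 31 genes was -0.12 with 29 lower in males, and 0 were called by limma. Markers of other cell states moved in the same sums. The 10 naive or central memory markers were all higher in males, with a median log2 fold change of 0.95 and summed levels of 752 to 932 CPM in females and 997 to 1330.0 in males. Of the terminal exhaustion markers 8 of 10 were lower, with a median of -0.25 and sums of 1740.0 to 2214 CPM in females and 1401 to 1821 in males. Effector markers were lower for 7 of 10, Gzma past the test, with sums of 5661 to 6348 CPM in females and 3781 to 4431 in males. Proliferating markers were lower for 13 of 16, with a median of -0.18 and sums of 1962 to 2142 in females and 1691 to 1955 in males. The interferon-stimulated markers were higher for 9 of 9 tested, with a median of 0.57, and none passed the test. Cytokine-producing activated markers were lower for 8 of 10, with sums of 4251 to 8492 in females and 4125 to 5529 in males. Progenitor exhausted markers were higher for 7 of 9, with a median of 0.44, and sums of 566 to 698 in females and 658 to 887 in males. The 5 CD8 T cell markers tested were all lower, none past the test, with a median of -0.17. They summed to 4182 to 4992 CPM in females and 3710 to 4361 in males. The 3 CD4 T cell markers were also lower, none past the test, with a median of -0.39 and sums of 3.58 to 8.74 in females and 2.08 to 4.09 in males. Myeloid markers were lower for 9 of 11 tested, none past the test, with a median of -0.20. They summed to 25.2 to 57.5 CPM in females and 23.3 to 25.8 in males. Markers of tumour epithelial cells, which also use glycolysis, summed to 3.70 to 10.5 CPM in females and 4.47 to 6.499 in males, with Krt19 at 0. The part of these shifts in the members' values was not tested beyond the equal mix.

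Within clusters, 10 calls were made over 9 genes by edgeR, in clusters 1, 3 and 9. In the other 8 clusters 0 of the genes tested were called. The share of all genes called there was 0.139% in cluster 0, 0.358% in cluster 2, 0.105% in cluster 4, 0.0979% in cluster 5, 0.181% in cluster 6, 0.168% in cluster 7, 0.0968% in cluster 8 and 0.274% in cluster 10. In these 8 clusters an unadjusted p under 0.05 was reached by 4, 6, 7, 2, 3, 2, 3 and 0 of the genes, in that order, and DESeq2 called 0 in each but cluster 8, where it called Bnip3 (0.118% of all genes). The median log2 fold change was negative in all 11 clusters, from -0.01 in cluster 5 to -0.48 in cluster 9, while the median over all genes lay between -0.0059 and 0.0057. With cells between the 25th and 75th percentile of UMI totals in their cluster, it was 0.09 in cluster 7 (10 of 23 genes lower), -0.0023 in cluster 2 and -0.22 in cluster 9. In cluster 5 it was 0.04 with male library 1 left out, 0.04 with female library 2 left out and 0.01 with male library 4 left out, and in cluster 9 it was -0.29 without female library 5. Every female library was above every male one for 11 of 30 genes in cluster 2 (9.51% of all genes), 9 of 30 in cluster 4 (3.52%) and 9 of 29 in cluster 7 (8.34%). The same held for 3 of 30 in cluster 0 (3.64%), 4 of 30 in cluster 3 (3.89%), 2 of 30 in cluster 5 (2.73%), 3 of 26 in cluster 6 (4.74%), 3 of 30 in cluster 8 (3.08%) and 3 of 24 in cluster 10 (5.61%). Slc2a1, Slc2a3, Aldoa, Pgk1, Eno1, Ero1l and Higd1a had a lower fitted value and a lower mean CPM in males in 11 of 11 clusters, also with DESeq2 size factors. Leaving out 1 library brought this to between 8 and 11 clusters, and cells of middle UMI totals to between 9 and 11.

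**Figure D4:**
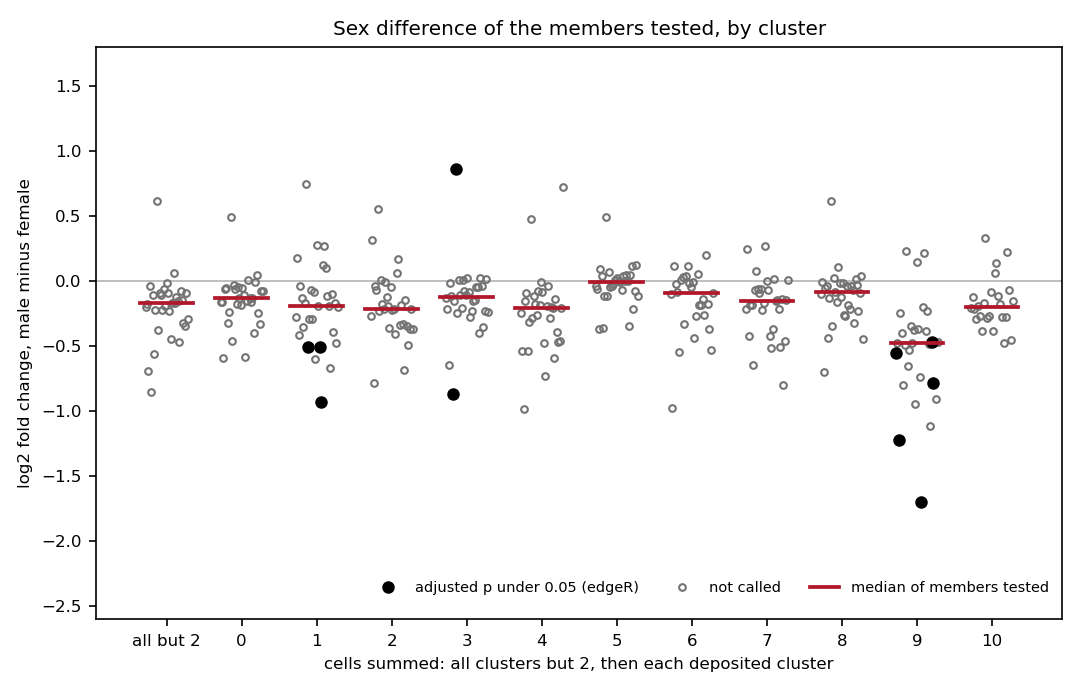
Log2 fold change (male minus female, edgeR) of every gene of the set that was tested, over all clusters but 2 and in each cluster; filled points passed an adjusted p of 0.05 and lines are medians. The filled points are 3 in cluster 1, 2 in cluster 3 and 5 in cluster 9, and Eno3 in cluster 3 is the filled point above 0.

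In the interferon-stimulated-like cluster 9, 2.29% of all 8030 genes were called lower in males and 3.41% in either direction. Of the 29 genes of the set tested there, 26 had a lower fitted value in males and 5 were called lower. The 5 called were Ndrg1, Bnip3, Slc16a3, Aldoa and Pkm. Ndrg1 was at 34.2, 61.4 and 36.1 CPM in the female libraries 2, 5 and 6 and at 9.90, 13.9 and 16.9 in the male libraries 1, 3 and 4. It fell by 1.698 ± 0.25 on the log2 scale (SE, edgeR adjusted p = 0.000135). Slc16a3 was at 65.2, 70.8 and 64.0 CPM in females and 29.3, 40.4 and 42.8 in males, a log2 fold change of -0.78 ± 0.18 (edgeR adjusted p = 0.00847). Bnip3 was at 58.5, 123 and 62.9 CPM in females and 28.8, 38.7 and 37.4 in males, a change of -1.22 ± 0.27 (edgeR adjusted p = 0.0357). Female library 5 was the highest library for all 5 genes.

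The 2 glycolytic enzymes called there changed less. Aldoa was at 1149.8, 1604 and 1076 CPM in females and 688, 953 and 864 in males (log2 fold change -0.55 ± 0.15, edgeR adjusted p = 0.0485). Pkm, the last kinase of glycolysis, was at 749.9, 880.1 and 763 CPM in females and 465, 606 and 589.6 in males (-0.47 ± 0.13, edgeR adjusted p = 0.0419). None of the 5 genes overlapped between the sexes, and 19 of the 29 had every female library above every male one, against 13.5% of all genes in this cluster. Without female library 5 only Ndrg1 stayed called, at -1.32, with 70 of all 8416 genes called. Without female library 6 the number called was 11, with 382 of all 8343 genes called. DESeq2 called 6, with 174 of all 8030 genes called. They were Pgk1, Slc2a3, Bnip3, Pkm, Slc16a3 and Ndrg1, and Aldoa was not among them.

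The sexes differed in other ways within cluster 9. Female cells held a median of 7765 UMIs and male cells 5714.5. Of the terminal exhaustion markers 8 of the 9 tested were lower in males, and Nrp1, Cxcr6, Havcr2 and Entpd1 passed the test; the list summed to 1440.2 to 2004 CPM in females and 606 to 956 in males. All 10 naive or central memory markers were higher in males, Lef1 and Ccr7 past the test, with sums of 1028 to 1645 CPM in females and 1780.3 to 2462 in males. Cytokine-producing activated markers were lower in males for 7 of 8, with a median log2 fold change of -1.10, Nr4a3 and Tnf past the test and sums of 1724 to 6161 CPM in females and 529 to 1197 in males. Effector markers were lower for 7 of 9, with Klrg1 called lower and Ly6c2 called higher, and sums of 5362 to 6666 in females and 3543 to 4516 in males. Ifit3, an interferon-stimulated marker, was called higher in males at a log2 fold change of 0.78, and Id3, a progenitor exhausted marker, at 1.66. No other marker of those lists was called. Tumour epithelial markers summed to 4.72 to 9.31 CPM in females and 5.20 to 9.45 in males, with Krt19, Krt7 and Krt14 at 0. Among cells of middle UMI totals in this cluster, 0 of 25 genes were called and 6 of all 5351 genes. There the log2 fold change was -1.12 for Bnip3, -0.70 for Slc16a3, -0.37 for Aldoa and -0.22 for Pkm, and Ndrg1 did not pass the filter on low counts. The part of cell state and depth in these calls was not tested further.

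In cluster 1, 2.2% of all 9234 genes were called lower in males and 3.8% in either direction. Of the 29 genes of the set tested there, 23 had a lower fitted value in males and 3 were called lower. Ndrg1 was at 20.6, 24.0 and 16.5 CPM in females and 8.78, 10.5 and 13.0 in males, a log2 fold change of -0.93 ± 0.20 (edgeR adjusted p = 0.0124). Ero1l was at 69.0, 54.1 and 59.2 CPM in females and 47.5, 39.2 and 38.1 in males (-0.50 ± 0.14, edgeR adjusted p = 0.0429). Mxi1 was at 56.6, 50.3 and 51.9 CPM in females and 32.1, 30.5 and 44.8 in males (-0.51 ± 0.14), and passed the threshold narrowly (edgeR adjusted p = 0.049992). The sexes did not overlap for these 3, and 12 of the 29 genes had every female library above every male one, against 12.9% of all genes in this cluster. Here the 10 terminal exhaustion markers were all lower in males, summing to 1132 to 1822 CPM in females and 627 to 819 in males, and Lag3, Nrp1 and Cxcr6 passed the test. Of the effector markers 7 of 10 were lower, S100a4, S100a6, Gzma and Gzmk past the test, with sums of 8851 to 9432 CPM in females and 5395 to 6144 in males. The 10 naive or central memory markers were all higher in males, Lef1 and Il7r past the test, with sums of 1405 to 1770.0 and 1789 to 2398. Of the progenitor exhausted markers, Tnfsf8 was called higher in males at a log2 fold change of 1.48 and Cd200 lower at -1.25. Itgam, a myeloid marker, was called lower at -1.19. Female cells held a median of 6687 UMIs, male cells 4814, and the part of these shifts in the calls was not tested. With cells of middle UMI totals 0 of 27 genes were called, and 120 of all 7919 genes. There Ndrg1 was at -0.37, Ero1l at -0.27 and Mxi1 at -0.58. Without female library 5 the count was also 0, with 64 of all 9153 genes called. Without female library 6 it was 10, with 710 of all 9663 genes called. DESeq2 called 2, Pgk1 and Ndrg1, and not Ero1l or Mxi1, with 270 of all 9234 genes called.

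In the proliferating-like cluster 3, the deepest of the clusters, 2 of 30 genes were called, 1 in each direction, where 0.142% of all 10534 genes were called, 0.0665% higher and 0.0759% lower in males. Eno3 was at 11.9, 11.001 and 16.6 CPM in females and 25.7, 20.6 and 24.5 in males, a log2 fold change of 0.86 ± 0.15 (edgeR adjusted p = 0.0415). Egln3, a prolyl hydroxylase that is itself a HIF target, was at 13.7, 12.9 and 14.5 CPM in females and 6.66, 9.08 and 7.13 in males, a change of -0.87 ± 0.15 (edgeR adjusted p = 0.0472). Neither overlapped between the sexes. With cells of middle UMI totals the changes were of like size, 0.91 for Eno3 and -0.78 for Egln3. Neither was called there, and 10 of all 9635 genes were. Leaving out male library 1 or 4, or female library 2 or 5, brought the count to 0, with 10 to 14 of all genes called. The effector markers were lower in males for 9 of 9 in this cluster, Gzma past the test, with sums of 4610.3 to 5248 CPM in females and 2930 to 3467 in males. Tnfsf8, a progenitor exhausted marker, was called higher in males at a log2 fold change of 1.41. Of the myeloid markers 7 of 7 tested were lower, none past the test, with a median of -1.27 and sums of 19.2 to 82.2 CPM in females and 15.3 to 24.3 in males. The proliferating markers summed to 5598 to 5988 CPM in females and 5454 to 6076 in males, and the part of these shifts in the calls was not tested. Eno3 had a fitted value above 0 in 9 of 9 clusters where it was tested, from 0.01 to 0.86, and every male library was above every female one in clusters 1, 3, 5 and 8, which held for 8.48%, 6.19%, 5.89% and 4.94% of all genes, though its mean CPM was lower in males in 3 of the 11 clusters.

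Of the other genes of glycolysis and pyruvate use 34 were tested over CD8 T cells, and of the other HIF pathway and hypoxia genes 33. By edgeR, DESeq2 and limma-voom 0 of either list were called, and 3 and 1 had an unadjusted p under 0.05 by edgeR. In cluster 9, Aldoc was called lower in males among 21 glycolysis genes tested, as were Epas1, Bhlhe40 and Hif1a among 27 HIF pathway genes. The share of all genes called lower there was 2.29%. In cluster 1, Hif1a and Bhlhe40 were called lower among 30 HIF pathway genes, against 2.2% of all genes. Of 23 glycolysis genes 0 were called in cluster 1, and 3 had an unadjusted p under 0.05. In both clusters the sexes also differed in UMIs per cell and in markers of cell state, as given above, and the part of this was not tested. Hif1a in cluster 1 was at 352, 331 and 265 CPM in females and 171, 179 and 202 in males, a log2 fold change of -0.76 ± 0.12 (edgeR adjusted p = 0.000894). In cluster 9 it was at 415, 330.5 and 291 in females and 178, 228 and 269 in males (-0.56 ± 0.15, edgeR adjusted p = 0.0384). Epas1 in cluster 9 was at 16.6, 17.5 and 11.6 CPM in females and 3.15, 5.20 and 4.10 in males (-1.86 ± 0.37, edgeR adjusted p = 0.00271). Bhlhe40, a transcriptional repressor induced in activated T cells, was at 267, 244 and 257 CPM in females and 154, 153 and 203 in males in cluster 1 (-0.56 ± 0.11, edgeR adjusted p = 0.00778).

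Whether the sex difference itself differed between clusters was tested in 1 model over all libraries and clusters, with the library as a block. By edgeR 2 of 31 genes passed, Slc16a3 and Pgk1, where 1.56% of 10874 genes passed. Slc16a3 was lower in males in cluster 9, as given above, and in cluster 7 at 21.3, 22.1 and 18.2 CPM in females and 9.58, 12.4 and 12.9 in males, a fitted -0.80 that was not called within that cluster. In clusters 0 and 8 its fitted values were 0.04 and -0.03, and the sexes overlapped (edgeR adjusted p of the interaction = 0.0033). Pgk1 had a fitted value of -1.11 in cluster 9, where females were at 160.2, 191 and 162 CPM and males at 48.6, 111 and 70.6. In cluster 8 it was -0.32 with overlapping libraries (edgeR adjusted p of the interaction = 0.0213). In 10 of 11 clusters male library 3 had the highest Pgk1 level of the males. Leaving out male library 1, male library 3 or female library 5 left 0 of the 31 genes past the threshold in this test. The call of Slc16a3 was also lost without female library 2, and that of Pgk1 without female library 6 or male library 4.

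**Figure D5:**
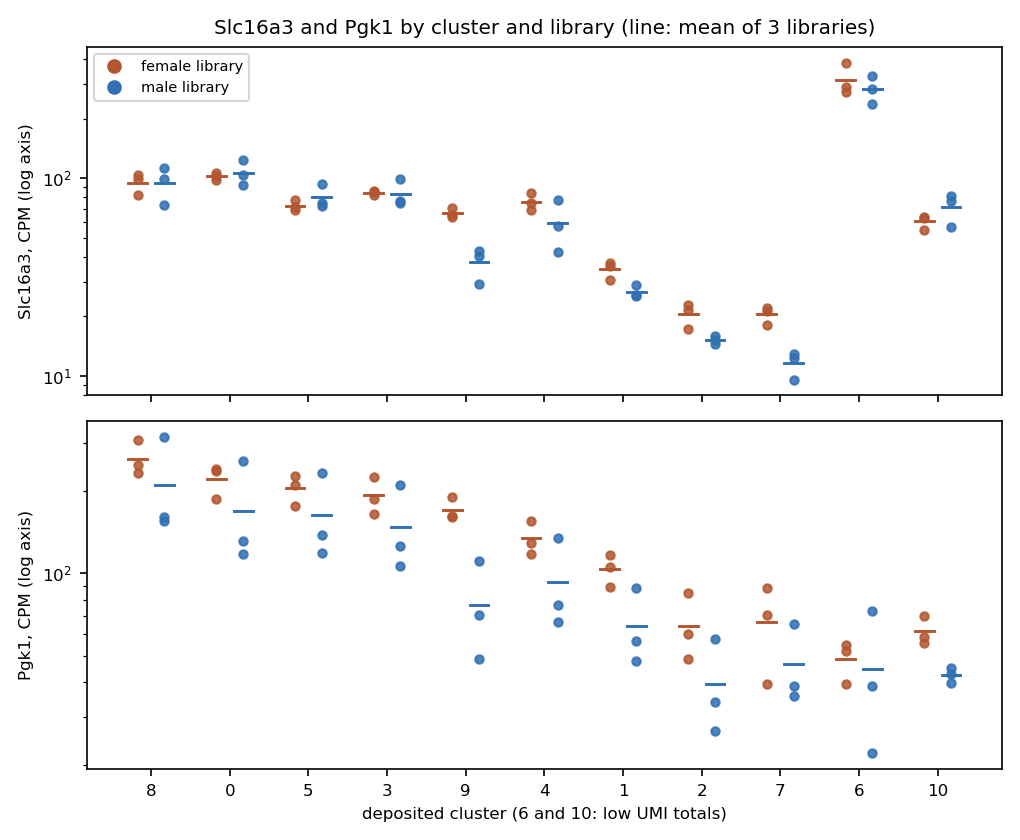
CPM of Slc16a3 (top) and Pgk1 (bottom) in each library by deposited cluster, on log axes; points are libraries and lines the means of 3. The sexes overlap for both genes in clusters 8 and 0 and lie apart in cluster 9, where Slc16a3 is at 64.0 to 70.8 in females and 29.3 to 42.8 in males.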

How the data were processed

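Per the labels, 10x Genomics 3' libraries were made from 3 female and 3 male biological replicates, and mm10, Cell Ranger and Seurat are listed in the submitters' processing notes. The deposited table holds raw UMI counts per gene and cell, and the deposited metadata gives host sex, counts per cell and the authors' cluster. Both totals per cell matched in all 26698 cells. How cells were filtered and doublets treated is not given in the sources used here, and no doublets were removed. Libraries were told apart by the number that ends each cell name; no source ties it to a replicate number of the labels, so p-values measure the spread between these libraries.

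Counts were summed per library over all clusters but 2, and per library and cluster (at least 93 cells per sum). Sexes were tested with edgeR 4.0.16 under R 4.3.3 (quasi-likelihood test, filter on low counts, TMM), with Benjamini-Hochberg adjustment over all genes tested and a threshold of 0.05. Cluster by sex terms were tested jointly with library as a block. Alternatives used DESeq2 1.42.0, limma 3.58.1 (voom, and log2(CPM + 1) at equal cluster mix), other scaling, no filter, other cells and leaving out each library. Cells of middle UMI totals were added after the data were seen. The edgeR fits were tested on simulated data. Levels are CPM of the sums without TMM, with the SD over libraries. Promoter windows are from RefSeq (GRCm38.p6; Ero1l is Ero1a there). The 32 genes, the other lists and the tests were chosen with earlier results of these data known. Named genes are those called in a sex comparison, the 3 with the largest sex difference over CD8 T cells and the 8 with the largest ratio between clusters at a mean of at least 5 CPM; others are named by role or were picked after their values were seen. Of the pathway genes, those called (up to 6) and up to 4 with the largest ratio at a mean of at least 5 CPM are named with Hif1a.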

Additional observations from a re-analysis of the deposited data

Results flagged for a closer look

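For 2 of the 32 genes and 4 further genes of the HIF pathway the sex difference differed between clusters, by edgeR's joint test of the cluster by sex terms. The adjusted p was 0.0033 for Slc16a3, 0.0213 for Pgk1, 0.0002 for Bhlhe40, 0.00137 for Hif1a, 0.00272 for Ddit4 and 0.0496 for P4hb. Over the other scaling, the model without clusters 6 and 10 and the models that leave out 1 library, the edgeR adjusted p ran from 0.000325 to 0.119 for Slc16a3, from 0.00137 to 0.228 for Pgk1 and from 9.73e-05 to 0.119 for Bhlhe40. It ran from 0.000241 to 0.03 for Hif1a, from 0.000352 to 0.14 for Ddit4 and from 0.0565 to 0.299 for P4hb, which passed in none of them. Of these 6, Hif1a alone kept an adjusted p under 0.05 in each of those models.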

How the results depend on the processing

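Over CD8 T cells 0 of 31 genes were called under each alternative but DESeq2, which called 3. Leaving out 1 library turned the fitted direction, with no call, for 6 genes, whose log2 fold changes ran from -0.138 (without male library 3) to 0.00603 (without male library 1) for Hk1, from -0.370 (female 5) to 0.0658 (female 2) for Hk2 and from -0.204 (male 3) to 0.0147 (male 1) for Gapdh. They ran from -0.0905 (female 2) to 0.0429 (female 5) for Bnip3l, from -0.0277 (male 3) to 0.155 (female 6) for Pdk1 and from -0.0539 (female 2) to 0.0453 (female 6) for Kdm3a. With no filter on low counts the calls numbered 6 in cluster 1, 15 in cluster 9, 1 in cluster 2, 1 in cluster 8 and 25 over all clusters, against 10. Of all genes, those fits called 672 of 13922 in cluster 1, 506 of 13236 in cluster 9, 66 of 13804 in cluster 2 and 18 of 13853 in cluster 8. With cells of middle UMI totals they numbered 0 in clusters 1, 3 and 9, hence 0 in all. DESeq2 called 2 in cluster 1, 3 in cluster 3, 6 in cluster 9 and 1 in cluster 8, 12 over all clusters. Those calls left out Ero1l and Mxi1 in cluster 1 and Aldoa in cluster 9, which edgeR had called. Leaving out 1 library gave 0 to 10 calls in cluster 1, 0 to 3 in cluster 3, 1 to 11 in cluster 9, 0 to 2 in clusters 0 and 8, 0 to 1 in clusters 4 and 5, 1 to 22 over all clusters and 0 to 3 in the interaction, which gave 4 without clusters 6 and 10. Among all genes tested, the fits without 1 library called 64 to 710 in cluster 1, 10 to 30 in cluster 3 and 70 to 382 in cluster 9. They called 9 to 26 in cluster 0, 8 to 12 in cluster 8, 6 to 20 in cluster 4 and 8 to 24 in cluster 5. Such a fit has fewer samples, and the cause of the other changes was not tested. Of the 10 calls, Ndrg1 in cluster 9 was called under each alternative that tested it, 9 in all. Ero1l and Mxi1 in cluster 1, Egln3 in cluster 3 and Pkm in cluster 9 were each lost in 6 of 10 alternatives. With 3 libraries per sex, differences within the spread of libraries were not detectable, and Vegfa, Car9 and Adm lie near the floor of detection. No paired analysis was possible because the libraries could not be tied to the replicate numbers of the labels.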
